A study of Mus musculus with 10 samples.

Results

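Cx3cr1 and Cx3cl1, the receptor and the ligand of fractalkine signalling, were described across 3 groups of mouse brainstem microglia. They were chosen by name and are 2 of the 37447 genes in the expression table. Fractalkine, the product of Cx3cl1, is a chemokine that sits on the cell surface on a mucin stalk and is freed by proteases. In the brain it is made mainly by neurons, and also by endothelium. Its receptor, the product of Cx3cr1, couples to inhibitory G proteins and marks microglia, the resident immune cells of the brain, so receptor and ligand normally lie on different cells.

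All 10 libraries came from mice aged 6 weeks. Laser capture of GFP expressing microglia on brainstem sections (LCM_GFP) gave 4 libraries, from 3 female mice and 1 male mouse by their labels. Flow sorting of GFP expressing microglia after dissociation (FACS_GFP) gave 3 libraries, from 2 female mice and 1 male mouse by their labels. Flow sorting of wild-type C57BL/6 microglia (FACS_WT) gave 3 libraries, all male by their labels. The strain of the GFP mice and the locus of their reporter are not in the labels. As background that is not in the labels or files, the study is known for mice that carry GFP in place of the coding part of Cx3cr1 on a single chromosome copy, so the receptor is also the reporter gene. Laser-captured tissue was fixed with paraformaldehyde and its RNA was extracted with proteinase K, while RNA of sorted cells was extracted with TRIzol. Method, fixation and extraction therefore cannot be told apart.

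Some libraries stood apart or went against their labels. The embryonic globin gene Hbb-bh1 had 646, 0.598, 626 and 0.141 FPKM in LCM_GFP libraries 1 to 4 and was listed at 0 in all sorted libraries. The Y chromosome gene Kdm5d had 3.26 FPKM in LCM_GFP library 1 and 5.96 FPKM in LCM_GFP library 3, both labelled female. Of the other Y chromosome genes read, Uty had 15.6 and 0.286 FPKM and Ddx3y 0.198 and 0 FPKM in these libraries. For LCM_GFP library 3 the departure from the label thus rests on Kdm5d alone. FACS_GFP library 2, labelled male, had 3.91 FPKM of Xist, which coats the silenced X chromosome of female cells. It also had 23.0 FPKM of Kdm5d, and LCM_GFP libraries 1 and 3 had 14.0 and 32.8 FPKM of Xist. Each of these libraries therefore held RNA of both Kdm5d and Xist. Results are therefore also given without these libraries. FPKM is the number of fragments scaled to transcript length and to all mapped fragments. The table gives no fragment counts, so the depth behind a value is not known from it and no counting interval was computed.

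The promoters are printed to show where receptor and ligand transcription starts, since the pair differs there in base composition. Each sequence runs from 250 bases before to 50 bases after the RefSeq start, 5′ to 3′ on the strand of the gene, in build GRCm38.p6. It lies at chr9:120068247-120068546 on the minus strand for Cx3cr1 and at chr8:94771930-94772229 on the plus strand for Cx3cl1. Capitals mark matches on either strand to the TATA box (TATAAA), the GC box (GGGCGG) or the CCAAT box. The motif GAGGAAGT of PU.1, a myeloid factor, and the motif TGACTCA of AP-1 were also searched, without a match in either window.

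Cx3cr1: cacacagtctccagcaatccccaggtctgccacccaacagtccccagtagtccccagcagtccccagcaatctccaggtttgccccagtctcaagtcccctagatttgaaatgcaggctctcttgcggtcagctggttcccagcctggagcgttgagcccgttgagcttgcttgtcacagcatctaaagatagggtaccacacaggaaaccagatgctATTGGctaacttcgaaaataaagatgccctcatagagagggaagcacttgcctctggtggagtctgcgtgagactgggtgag

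Cx3cl1: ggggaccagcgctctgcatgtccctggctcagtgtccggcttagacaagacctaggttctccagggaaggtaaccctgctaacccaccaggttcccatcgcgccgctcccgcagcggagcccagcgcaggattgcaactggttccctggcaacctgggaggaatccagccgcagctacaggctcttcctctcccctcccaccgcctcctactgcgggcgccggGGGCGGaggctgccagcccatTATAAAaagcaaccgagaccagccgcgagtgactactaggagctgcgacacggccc

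The Cx3cl1 promoter held GGGCGG at position −27 and TATAAA at position −6, both on its own strand. The Cx3cr1 promoter held CCAAT on the opposite strand at position −32, printed as ATTGG. Positions give the leftmost base relative to the start. Of 32544 RefSeq promoters of the same length, 13.6% held the TATA box, 35.9% held the GC box, 37.4% held the CCAAT box, 3.11% held the PU.1 motif and 5.19% held the AP-1 motif on either strand. No overlap between marked matches was present. The CANNTG motif, which is the same on both strands and is not capitalised, occurred 3 times in the Cx3cr1 promoter and 1 time in the Cx3cl1 promoter, against at least 1 match in 72.3% of all promoters. The Cx3cl1 promoter had 64.7% G and C and 19 CG pairs, and 71.7% of promoters had fewer such pairs. The Cx3cr1 promoter had 54.3% G and C and 5 CG pairs, and 37.7% of promoters had fewer. These matches describe the letters and say nothing of which factor binds.

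Cx3cr1 (ENSMUSG00000052336, mm9 chromosome 9, 119957810 to 119977400) was detected in all 10 libraries. It had 25.5, 51.3, 61.5 and 22.3 FPKM in LCM_GFP libraries 1 to 4, 72.5, 64.6 and 70.4 FPKM in FACS_GFP libraries 1 to 3, and 123, 139 and 146 FPKM in FACS_WT libraries 1 to 3. The 3 groups lay in that order with no overlap between any of them, and the laser-captured libraries varied most. The means were 40.1 ± 19.3 FPKM in LCM_GFP (SD, n = 4), 69.2 ± 4.10 FPKM in FACS_GFP (SD, n = 3) and 136 ± 11.7 FPKM in FACS_WT (SD, n = 3). Ranked by FPKM among all genes, it stood within the top 3.75% to 10.0% of LCM_GFP libraries, the top 3.56% to 4.12% of FACS_GFP libraries and the top 1.42% to 1.81% of FACS_WT libraries.

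Cx3cl1 (ENSMUSG00000031778, mm9 chromosome 8, 97295908 to 97306323) was high in the laser-captured libraries only. It had 27.1, 28.4, 17.9 and 43.6 FPKM in LCM_GFP libraries 1 to 4, 0.0484, 0.102 and 0.191 FPKM in FACS_GFP libraries 1 to 3, and 0.0729, 0.0552 and 0.0996 FPKM in FACS_WT libraries 1 to 3. Every laser-captured library lay far above every sorted library, and the sorted groups overlapped. The means were 29.3 ± 10.7 FPKM in LCM_GFP (SD, n = 4), 0.114 ± 0.0718 FPKM in FACS_GFP (SD, n = 3) and 0.0759 ± 0.0223 FPKM in FACS_WT (SD, n = 3). The order of the 2 sorted groups is within their spread. Groups did not overlap for 48.2% of the genes tested between LCM_GFP and FACS_GFP (17.0% higher, 31.2% lower), for 46.5% between LCM_GFP and FACS_WT (16.9% higher, 29.6% lower) and for 20.8% between FACS_GFP and FACS_WT (11.5% higher, 9.29% lower). Laser-captured libraries 2 and 4, which had little embryonic globin RNA, held 28.4 and 43.6 FPKM.

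**Figure D1:**
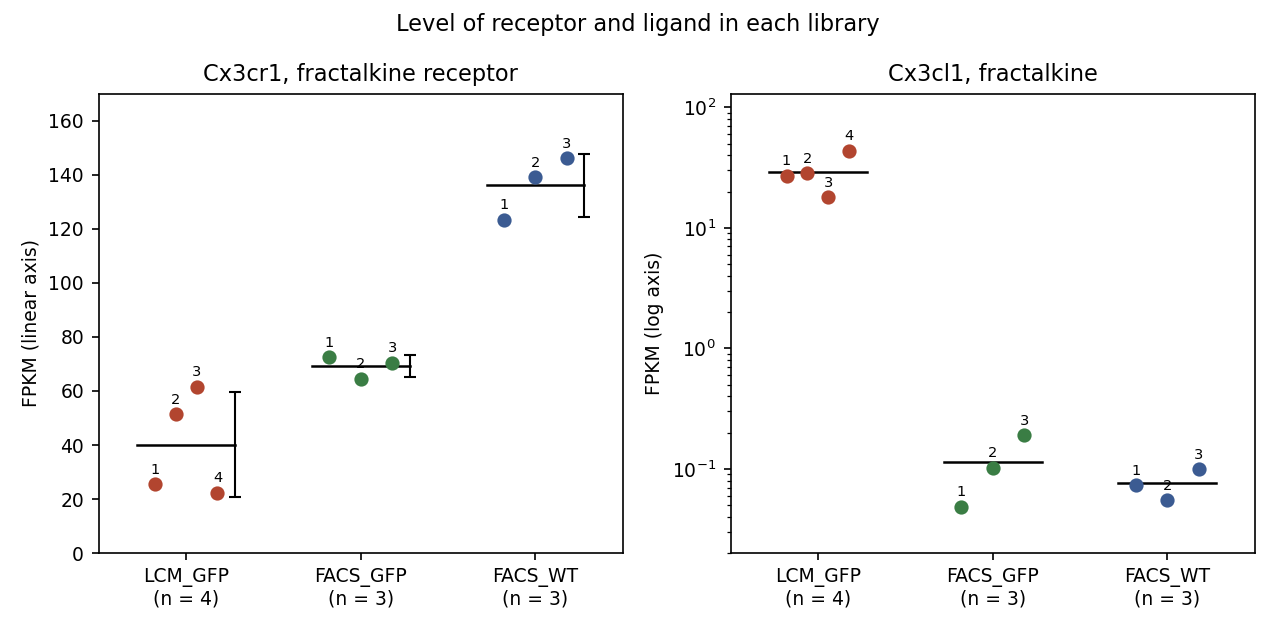
FPKM of Cx3cr1 on a linear axis (left) and of Cx3cl1 on a log axis (right) in each library, with points numbered by library, lines at the group means and bars of 1 SD for Cx3cr1. The 3 groups of Cx3cr1 do not overlap, with means of 40.1 in LCM_GFP, 69.2 in FACS_GFP and 136 in FACS_WT, while Cx3cl1 is at 17.9 or more in LCM_GFP and at 0.191 or less in all sorted libraries.

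The plot of both genes by library shows that the ligand reached the level of the receptor in laser-captured libraries alone. The FPKM ratio of Cx3cl1 to Cx3cr1 was 1.06, 0.555, 0.291 and 1.96 in LCM_GFP libraries 1 to 4. It was 0.000668 to 0.00271 in FACS_GFP and 0.000397 to 0.000682 in FACS_WT. Libraries 1 and 4 of LCM_GFP had more ligand than receptor, and the laser-captured library with most Cx3cr1 had least Cx3cl1.

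Comparing sorted GFP with sorted wild-type microglia asks how the reporter mice differ from wild-type mice when both were flow sorted. Cx3cr1 fell to 50.8% of its wild-type mean, a log2 change of −0.97 (SE 0.111, 95% interval −1.22 to −0.71, limma adjusted p = 0.0179). Log2 changes here and below are on the log2(FPKM + 1) scale, which understates the change of low genes, and a gene is called where the adjusted p is under 0.05. Cx3cr1 was 1 of 13 genes called among 11814 tested, where 0.11% were called, 0.0762% as lower and 0.0339% as higher. Only 0.406% of the tested genes had a lower log2 change. The other genes called lower included 3 small nucleolar RNAs, Mid1, which encodes a ubiquitin ligase, and the ribosomal pseudogenes Rps19-ps1 and Rps19-ps2. Slc25a12, which encodes a mitochondrial carrier, and Xist were among the 4 called higher, and all these names were picked after their values were seen.

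The comparison is not balanced for sex. Xist averaged 7.06 FPKM in FACS_GFP and 0.00325 FPKM in FACS_WT. FACS_GFP library 2, the one labelled male, had 64.6 FPKM of Cx3cr1, below both female libraries of its group and below all 3 male FACS_WT libraries. With sex from the labels as a covariate, a setting added after the data were seen in which the sex term rests on FACS_GFP library 2, whose Xist level goes against its label, the change was −1.06 (SE 0.162, 95% interval −1.44 to −0.68) and the call ended (limma adjusted p = 0.176). Reporter, strain background and any difference in how the cells were gated cannot be told apart. The table gives 1 value per gene and does not show which exons carried the fragments, so it is no check of a missing coding part. Without FACS_GFP library 2 the change was −0.92 and the adjusted p 0.0932 (limma). The call also ended without any other library except FACS_WT library 3, with log2 changes between −1.03 and −0.91. With no filter on low genes the limma adjusted p was 0.0964, and with all 3 groups in 1 fit it was 1.00. In the authors' deposited table Cx3cr1 had a log2 ratio of 0.92 for FACS_WT over FACS_GFP with q = 1.22e-05.

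Of the microglia genes described, Cx3cr1 was the only one called. None of the 22 other microglia markers was called, and their median log2 change was −0.20, with a range of −0.46 to 0.43, against a median of 0.00 over all genes. Tmem119, a microglial membrane protein, averaged 437 ± 45.7 FPKM in FACS_GFP and 602 ± 66.4 FPKM in FACS_WT (SD, n = 3 each), with a log2 change of −0.46 (limma adjusted p = 0.277). Slco2b1, an organic anion transporter, averaged 280 ± 18.6 FPKM in FACS_GFP and 207 ± 15.2 FPKM in FACS_WT (SD, n = 3 each), with a log2 change of 0.43 (limma adjusted p = 0.253). These 2 markers, named as the extremes of the list with non-overlapping groups, stayed closer to 0 than Cx3cr1. Groups did not overlap for 6 of the 22 on the lower side and 1 on the higher side, where the shares of all tested genes were 9.29% and 11.5%.

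**Figure D2:**
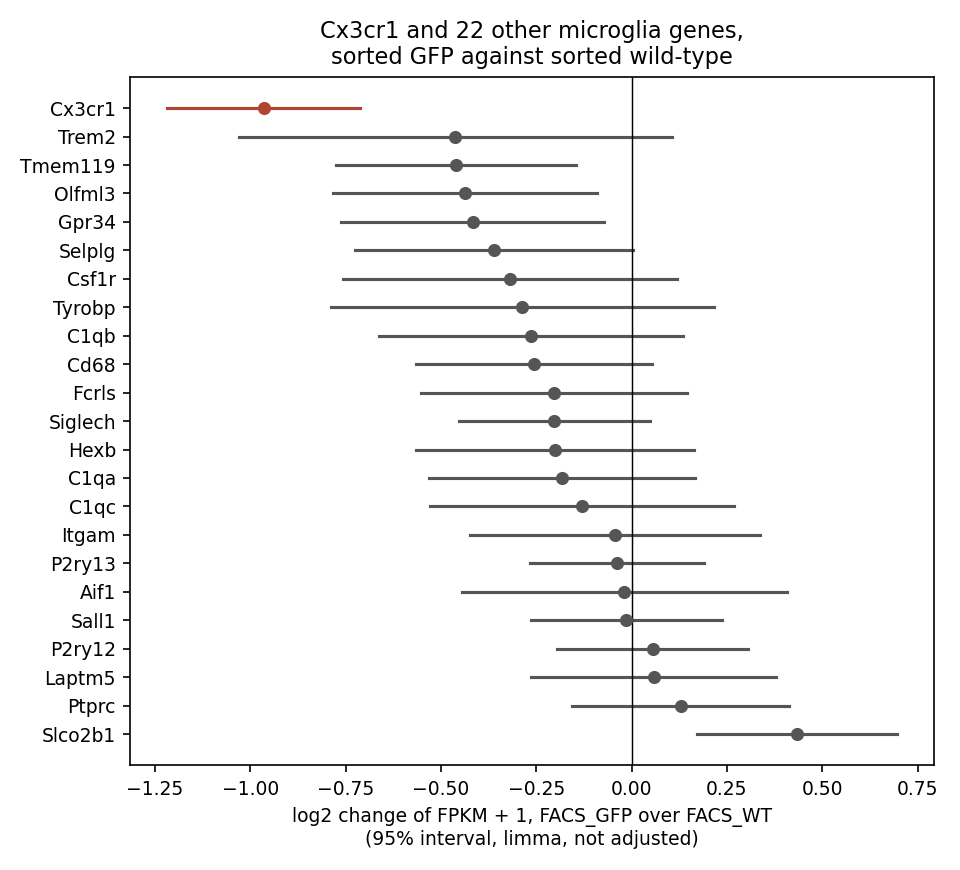
Log2 change of FPKM + 1 in FACS_GFP over FACS_WT for Cx3cr1 (red) and 22 other microglia genes (grey), 3 libraries a group, with 95% limma intervals not adjusted for multiple tests. Cx3cr1 lies at −0.97, below the other genes, which run from −0.46 to 0.43.

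Cx3cl1 gave no detectable difference between the sorted groups. It missed the filter of FPKM 1 in 3 libraries and was not tested there. Its difference was 0.05 on the log2(FPKM + 1) scale, and with no filter the limma adjusted p was 0.738 (95% interval −0.08 to 0.17). The authors' deposited table marks this comparison as not tested.

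Comparing laser-captured with sorted GFP microglia asks how the isolation methods differ within reporter mice. Cx3cl1 rose by 4.70 on the log2 scale (SE 0.454, 95% interval 3.66 to 5.74, limma adjusted p = 0.000351), and its mean FPKM was 257-fold that of FACS_GFP. Of the 13403 genes tested, 32.1% were called, 12.5% as higher and 19.6% as lower, so a call in this comparison is common. Cx3cl1 entered the test only through the laser-captured libraries and so had to be higher there, and its change was above that of 98.0% of the tested genes. The call held under every alternative that gave a value, with log2 changes between 2.69 and 7.09. With laser-captured libraries 2 and 4 only it missed the filter, which asks for 3 libraries.

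Cx3cr1 did not pass the test between LCM_GFP and FACS_GFP. Its log2 change was −0.89 (SE 0.439, 95% interval −1.90 to 0.11, limma adjusted p = 0.151), and the LCM_GFP mean was 58.1% of the FACS_GFP mean. All genes tested had a median change of −0.60, and 41.3% of them had a lower change than Cx3cr1. With median ratio scaling between libraries the median of all genes was −0.14 and Cx3cr1 stood at −0.35 (limma adjusted p = 0.602). With laser-captured libraries 2 and 4 only, its change was −1.01 (limma adjusted p = 0.0915). In bulk libraries, fewer microglia and less Cx3cr1 RNA per microglial cell cannot be told apart. In the authors' deposited table Cx3cr1 had a log2 ratio of −1.20 for LCM_GFP over FACS_GFP with q = 0.634, and Cx3cl1 one of 7.63 with q = 0.279.

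Between LCM_GFP and FACS_WT, where method, reporter and sex differ together, Cx3cl1 rose and Cx3cr1 fell. Cx3cl1 changed by 4.75 (SE 0.464, 95% interval 3.69 to 5.81, limma adjusted p = 0.00036), and its mean was 386-fold that of FACS_WT. Here too Cx3cl1 entered the test only through the laser-captured libraries and so had to be higher there. Cx3cr1 changed by −1.86 (SE 0.435, 95% interval −2.86 to −0.86, limma adjusted p = 0.0145), and the LCM_GFP mean was 29.5% of the FACS_WT mean. Here 31.4% of 13415 tested genes were called, 12.3% as higher and 19.1% as lower, and 15.7% had a lower change than Cx3cr1. With laser-captured libraries 2 and 4 only, Cx3cr1 stood at −1.97 (limma adjusted p = 0.0144). Its call ended under median ratio scaling, at −1.32 (limma adjusted p = 0.0580), with sex as a covariate, at −1.39 (limma adjusted p = 0.194), and without FACS_WT library 1, 2 or 3 (limma adjusted p = 0.0706, 0.0799 and 0.0852). This comparison and the one with FACS_GFP share the 4 laser-captured libraries. In the authors' deposited table the log2 ratio of FACS_WT over LCM_GFP was 2.13 for Cx3cr1 (q = 0.0589) and −8.36 for Cx3cl1 (q = 0.0430).

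Microglia markers and the receptor were then set side by side within each library. Relative to the median of the 22 microglia markers on the log2(FPKM + 1) scale, Cx3cr1 stood at −1.63, −1.80, −1.51 and −2.20 in LCM_GFP libraries 1 to 4. It stood at −2.33, −2.33 and −2.43 in FACS_GFP libraries 1 to 3 and at −1.56, −1.31 and −1.59 in FACS_WT libraries 1 to 3. FACS_GFP lay below all other libraries, and LCM_GFP overlapped with FACS_WT. The mean difference of LCM_GFP and FACS_GFP was 0.58 (exact two-sided permutation p = 0.0571, the smallest that 4 against 3 libraries allow). That of FACS_GFP and FACS_WT was −0.87 (exact two-sided permutation p = 0.1, the smallest that 3 against 3 libraries allow). That of LCM_GFP and FACS_WT was −0.30 (exact two-sided permutation p = 0.229), but −0.08 relative to the mean of the markers (exact p = 0.629) and −0.16 without LCM_GFP library 4 (exact p = 0.4). By FPKM, Cx3cr1 ranked 19 to 22 of 23 among these genes and itself in LCM_GFP, 23 in every FACS_GFP library and 22 in every FACS_WT library.

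**Figure D3:**
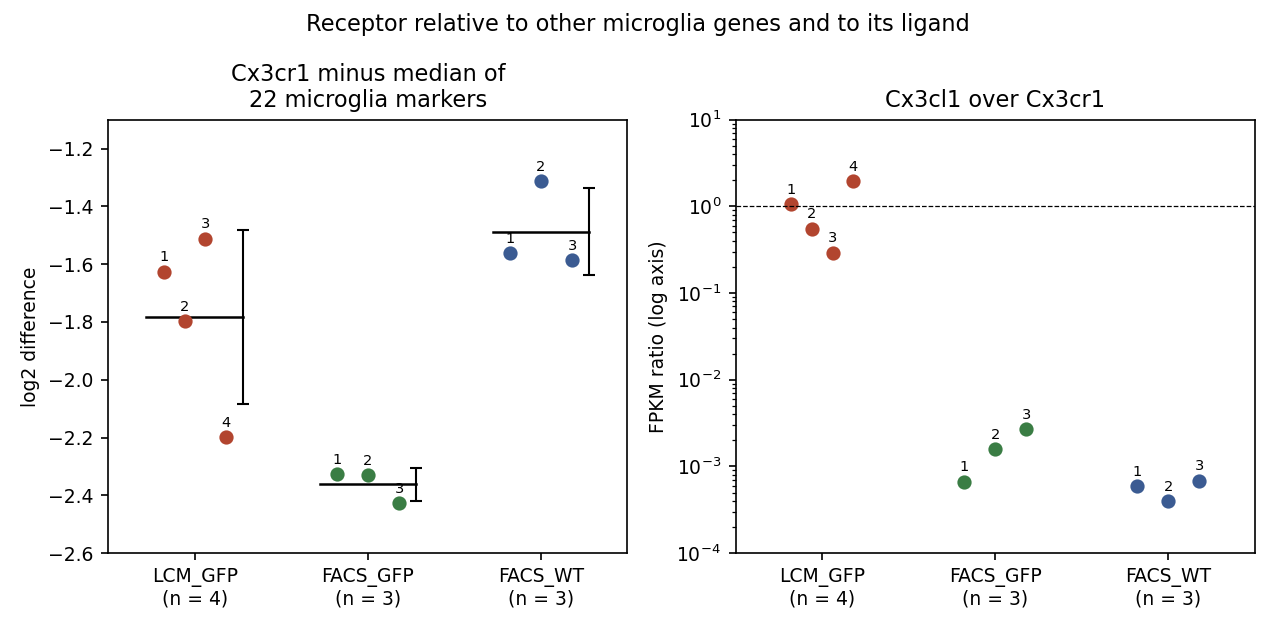
Left, log2(FPKM + 1) of Cx3cr1 minus the median of 22 microglia markers in each library, with means and bars of 1 SD. Right, FPKM ratio of Cx3cl1 to Cx3cr1 on a log axis with a dashed line at 1. FACS_GFP lies lowest on the left, at −2.43 to −2.33, and LCM_GFP highest on the right, at 0.291 to 1.96.

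The markers themselves were lower in LCM_GFP. Of the 22, 15 fell and none rose against FACS_GFP, with a median log2 change of −1.58 and a range of −2.76 to −0.74, beside −0.60 for all genes, of which 19.6% were called lower. This count depends on scaling, since 3 fell with median ratio scaling, where 1357 of all 13403 tested genes were called lower. With laser-captured libraries 2 and 4 only 12 fell, beside 4084 of 11547 tested genes. With no filter on low values 7 fell, beside 2703 of 23201 tested genes. With any 1 FACS_GFP library left out the count was 1 to 2, beside 304 to 329 of 12685 to 12697 tested genes. Laptm5, a lysosomal membrane protein of hematopoietic cells and microglia, averaged 780 ± 425 FPKM in LCM_GFP (SD, n = 4) and 2308 ± 192 FPKM in FACS_GFP (SD, n = 3) and fell by 1.75 (limma adjusted p = 0.0225). That call ended with no filter (limma adjusted p = 0.0507), with median ratio scaling (0.0923), with any 1 FACS_GFP library left out (0.0719 to 0.0867) and with laser-captured libraries 2 and 4 only (0.0580). Csf1r, the receptor for the microglial survival factor, averaged 447 ± 217 FPKM in LCM_GFP (SD, n = 4) and 894 ± 96.3 FPKM in FACS_GFP (SD, n = 3), a change of −1.13 that did not pass (limma adjusted p = 0.0645), though it did without LCM_GFP library 2 or 3 (limma adjusted p = 0.0460 and 0.0363) and with all 3 groups in 1 fit (0.0333). Cx3cr1 was 7.88% to 10.6% of Csf1r by FPKM in LCM_GFP, 7.24% to 8.21% in FACS_GFP and 9.94% to 14.5% in FACS_WT.

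Markers of neurons, the main known source of fractalkine in brain, were higher together with Cx3cl1. All 14 neuron markers were called higher in LCM_GFP against FACS_GFP, beside 12.5% of all tested genes, with a median log2 change of 6.18. Of the 14, 12 passed the filter only with the help of the laser-captured libraries, which selects for higher values there, and 9 of these reached FPKM 1 in no FACS_GFP library. The other 2, which reached FPKM 1 in every FACS_GFP library, were called higher too. The summed level of the 14 was 1408 to 3748 FPKM in LCM_GFP, 16.3 to 23.7 FPKM in FACS_GFP and 15.0 to 16.3 FPKM in FACS_WT. Most of the sorted sums came from Elavl4, which averaged 12.6 FPKM in FACS_GFP and 12.7 FPKM in FACS_WT. The median neuron marker was at most 0.214 FPKM in any FACS_GFP library. Only Syt1 was listed at 0 in every library of a sorted group, FACS_WT. Snap25, a synaptic fusion protein, averaged 848 ± 343 FPKM in LCM_GFP (SD, n = 4) and 3.25 ± 3.05 FPKM in FACS_GFP (SD, n = 3). LCM_GFP library 4 had both the highest neuron sum and the most Cx3cl1, while library 3 had the second highest sum and the least Cx3cl1. The part of neuronal RNA in the Cx3cl1 level was not tested.

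Endothelium, which can also make fractalkine, was represented as well. Of the 10 endothelium markers 9 were tested against FACS_GFP, 6 were called higher and none lower, with a median of 2.52. All 6 passed the filter only with the laser-captured libraries, and none came from the 2 markers that reached FPKM 1 in every FACS_GFP library. The sum of the 10 markers was 156 to 422 FPKM in LCM_GFP, 64.4 to 74.6 FPKM in FACS_GFP and 65.1 to 77.0 FPKM in FACS_WT, with Cldn5 listed at 0 in both sorted groups and Slco1a4 in FACS_WT. Most of the sorted sums came from Pecam1 and Slc2a1, of which Slc2a1 averaged 46.9 FPKM in FACS_GFP and 51.5 FPKM in FACS_WT. The median endothelium marker was at most 0.397 FPKM in any FACS_GFP library. Slco1a4, a transporter of brain endothelium, averaged 75.2 ± 52.3 FPKM in LCM_GFP (SD, n = 4) and 0.150 ± 0.261 FPKM in FACS_GFP (SD, n = 3). Pecam1, an adhesion molecule also found on leukocytes, averaged 8.83 ± 6.65 FPKM in LCM_GFP (SD, n = 4) and 20.0 ± 2.47 FPKM in FACS_GFP (SD, n = 3) and did not pass (limma adjusted p = 0.1), though it did without LCM_GFP library 4 (log2 change −1.69, limma adjusted p = 0.0192) and with all 3 groups in 1 fit (0.0430). All 9 oligodendrocyte markers and 6 of 8 astrocyte markers were called higher too, beside 12.5% of all tested genes, but 5 and 6 of these markers reached FPKM 1 in no FACS_GFP library and so had to be higher. Of those that reached FPKM 1 in every FACS_GFP library, 4 of 4 and 1 of 2 were called higher. The sums were 2671 to 7532 FPKM and 461 to 953 FPKM in LCM_GFP, against 21.2 to 26.5 FPKM and 29.5 to 33.0 FPKM in FACS_GFP. Most of the astrocyte sum in FACS_GFP came from Slc1a3, which averaged 28.1 FPKM there. The median marker was at most 0.673 FPKM for oligodendrocytes and 0.217 FPKM for astrocytes in any FACS_GFP library. Monocyte and perivascular macrophage markers, whose cells can also carry Cx3cr1, summed to 1.08 to 15.5 FPKM in LCM_GFP, 9.78 to 22.8 FPKM in FACS_GFP and 15.7 to 21.3 FPKM in FACS_WT. The part of these cell types in either gene was not tested.

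Proteases and inhibitors that govern the release of fractalkine were next. Of 6 genes, 1 was called higher and 3 lower in LCM_GFP against FACS_GFP, with a median of −1.12, where 12.5% of all tested genes were called higher and 19.6% lower. Adam10, the protease of constitutive shedding, had 62.7, 63.9, 49.4 and 42.2 FPKM in LCM_GFP and 114, 108 and 108 FPKM in FACS_GFP, and fell by 1.02 (limma adjusted p = 0.035). Adam17, the protease of induced shedding, had 10.9, 16.7, 8.34 and 12.4 FPKM in LCM_GFP and 66.3, 65.6 and 69.7 FPKM in FACS_GFP, and fell by 2.42 (limma adjusted p = 0.00236). Neither gene had overlapping groups, and the call of Adam17 held under every alternative run. Ctss, a cysteine protease secreted by microglia that cuts fractalkine, averaged 186 ± 118 FPKM in LCM_GFP (SD, n = 4) and 838 ± 106 FPKM in FACS_GFP (SD, n = 3) and fell by 2.42 (limma adjusted p = 0.0119). With any 1 FACS_GFP library left out the calls of Adam10 (limma adjusted p = 0.165 to 0.183) and Ctss (0.0502 to 0.0611) ended. Their log2 changes were then −1.03 to −0.99 and −2.48 to −2.31. Most lower calls over all tested genes ended too, here and in the lists below, with 304 to 329 left of 2624. The call of Adam10 also ended with median ratio scaling, at −0.47 (limma adjusted p = 0.312), with quantile normalization (0.0734) and with sex as a covariate (0.0610).

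Timp3, a secreted inhibitor of Adam17, was the gene that rose. It had 17.6, 12.1, 7.51 and 29.6 FPKM in LCM_GFP and at most 0.0059 FPKM in FACS_GFP, a log2 change of 3.98 (limma adjusted p = 0.0011), and entered the test through the laser-captured libraries. Rhbdf1 and Rhbdf2, which encode inactive rhomboid proteins that guide Adam17 to the cell surface, did not pass. Rhbdf1 averaged 4.29 FPKM in LCM_GFP, with 14.0 FPKM in library 2 alone, and 5.35 FPKM in FACS_GFP (log2 change −0.94). Without that library Rhbdf1 passed, at −1.67 (limma adjusted p = 0.0188). Rhbdf2 averaged 2.15 FPKM in LCM_GFP and 5.34 FPKM in FACS_GFP (log2 change −1.22).

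Integrins that have been described to bind fractalkine gave 2 lower calls among 4 genes, with a median of −1.47, beside 19.6% lower calls over all tested genes. Itgav averaged 26.1 ± 8.40 FPKM in LCM_GFP (SD, n = 4) and 74.4 ± 2.33 FPKM in FACS_GFP (SD, n = 3) and fell by 1.53 (limma adjusted p = 0.0164). Itgb1 averaged 17.2 ± 11.4 FPKM in LCM_GFP (SD, n = 4) and 46.8 ± 4.66 FPKM in FACS_GFP (SD, n = 3) and fell by 1.59 (limma adjusted p = 0.0497). Both calls ended under median ratio scaling and with any 1 FACS_GFP library left out (limma adjusted p = 0.103 to 0.110 for Itgav and 0.158 to 0.184 for Itgb1). The call of Itgb1 ended in 13 of 17 alternatives. Itgb3, the partner of Itgav, stood at 5.41 FPKM in LCM_GFP and 13.2 FPKM in FACS_GFP, and Itga4, a partner of Itgb1, at 0.755 FPKM in LCM_GFP and 1.04 FPKM in FACS_GFP, and neither passed. Itgb3 did pass without LCM_GFP library 3 (log2 change −1.80, limma adjusted p = 0.0437) and with laser-captured libraries 2 and 4 only (−2.18, limma adjusted p = 0.0163).

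Genes that couple the receptor to its signals were called in both directions, at shares near those of all genes. Of 20 genes 19 were tested against FACS_GFP, 3 were called higher and 5 lower, with a median of −1.09, where 12.5% of all tested genes were called higher and 19.6% lower. Those called higher were Gnao1 and Gnai1, G protein alpha subunits that are abundant in neurons, and Gnb1, a beta subunit. Gnai1 reached FPKM 1 in no FACS_GFP library and so could only be called higher. Gnao1 reached FPKM 1 in FACS_GFP library 3 alone, at 1.17 FPKM. It passed mainly through its laser-captured values, which selects for higher values there without fixing the direction. Gnb1 was well above FPKM 1 in every library. Gnao1 averaged 496 ± 349 FPKM in LCM_GFP (SD, n = 4) and 0.436 ± 0.637 FPKM in FACS_GFP (SD, n = 3), with a log2 change of 8.23 (limma adjusted p = 0.000186). Gnb1 averaged 373 ± 79.4 FPKM in LCM_GFP (SD, n = 4) and 109 ± 14.0 FPKM in FACS_GFP (SD, n = 3), with a log2 change of 1.75 (limma adjusted p = 0.00276). Gnai2, the inhibitory alpha subunit of leukocytes, named after its values were seen, stood at 50.4 FPKM in LCM_GFP and 77.6 FPKM in FACS_GFP and did not pass (limma adjusted p = 0.175).

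The 5 coupling genes that fell were Gng2, a gamma subunit, Rgs1 and Rgs10, which switch off G protein signals, and Pik3cg and Pik3r5, the subunits of a lipid kinase driven by such receptors. Their log2 changes ran from −5.09 for Rgs1 to −1.28 for Rgs10. Rgs1 reached FPKM 1 in only 1 laser-captured library and so passed the filter through the sorted ones. Rgs10 averaged 55.0 ± 17.7 FPKM in LCM_GFP (SD, n = 4) and 131 ± 24.0 FPKM in FACS_GFP (SD, n = 3), and Pik3cg averaged 25.0 ± 15.7 FPKM in LCM_GFP (SD, n = 4) and 99.2 ± 1.79 FPKM in FACS_GFP (SD, n = 3). Rgs2, with 125 FPKM in LCM_GFP and 398 FPKM in FACS_GFP, and Arrb2, an arrestin that silences receptors, with 87.0 FPKM in LCM_GFP and 191 FPKM in FACS_GFP, did not pass. Rgs2 was near the threshold (limma adjusted p = 0.0523) and passed without LCM_GFP library 1, 2 or 3 (limma adjusted p = 0.0381, 0.0353 and 0.0354). With any 1 FACS_GFP library left out the calls of Gng2, Rgs10, Pik3cg and Pik3r5 ended (limma adjusted p = 0.0586 to 0.161), while that of Rgs1 held (0.0445 to 0.0486). The call of Rgs10 also ended without LCM_GFP library 4 (limma adjusted p = 0.0529) and with median ratio scaling, at −0.73 (0.165), and that of Pik3cg with median ratio scaling (0.0719). With laser-captured libraries 2 and 4 only, Pik3cg (limma adjusted p = 0.0530) and Rgs1 (0.0563) missed the threshold.

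Other chemokine receptors gave a context for Cx3cr1. Only 8 of 20 passed the filter against FACS_GFP, of which 1 was called higher and 3 lower, where 12.5% of all tested genes were called higher and 19.6% lower. The 8 included 5 that did not reach FPKM 1 in every FACS_GFP library. Their median of −0.50 rests on few genes, since it was 1.40 and 1.48 without FACS_GFP library 1 or 2, when 5 genes were tested. Ccr6, Cxcr6 and Ccrl2 fell, with means of at most 2.16 FPKM in LCM_GFP and at most 10.5 FPKM in FACS_GFP. Ccr6 passed through the sorted libraries alone and so had to be lower in LCM_GFP. With any 1 FACS_GFP library left out Ccr6 missed the filter, and the calls of Cxcr6 (limma adjusted p = 0.0554 to 0.0661) and Ccrl2 (0.128 to 0.146) ended. That of Ccrl2 ended in 10 of 17 alternatives, among them without LCM_GFP library 3 or 4 (limma adjusted p = 0.0588 and 0.0579). Darc, a chemokine-binding receptor of venules and red cell precursors, averaged 28.4 ± 21.3 FPKM in LCM_GFP (SD, n = 4) and was listed at 0 in every sorted library, so it had to be higher. Cxcr7, a receptor that scavenges chemokines, averaged 5.50 ± 5.05 FPKM in LCM_GFP (SD, n = 4) and 0.732 ± 0.393 FPKM in FACS_GFP (SD, n = 3), a log2 change of 1.53 that did not pass (limma adjusted p = 0.126) but did without LCM_GFP library 1 (1.93, limma adjusted p = 0.0487). Against FACS_WT, LCM_GFP gave 1 higher and 3 lower calls among 6 tested release genes and 2 lower calls among 4 integrins. Coupling gave 3 higher and 5 lower calls among 19, and these receptors 1 higher and 4 lower among 8, where Ccr1 was lower too. Ccr1 and Ccr6 reached FPKM 1 in no LCM_GFP library and so had to be lower. Timp3, Gnao1, Gnai1 and Darc reached FPKM 1 in no FACS_WT library and so had to be higher. Of all genes tested in that comparison 12.3% were called higher and 19.1% lower. Between FACS_GFP and FACS_WT no member of these 4 lists was called.

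**Figure D4:**
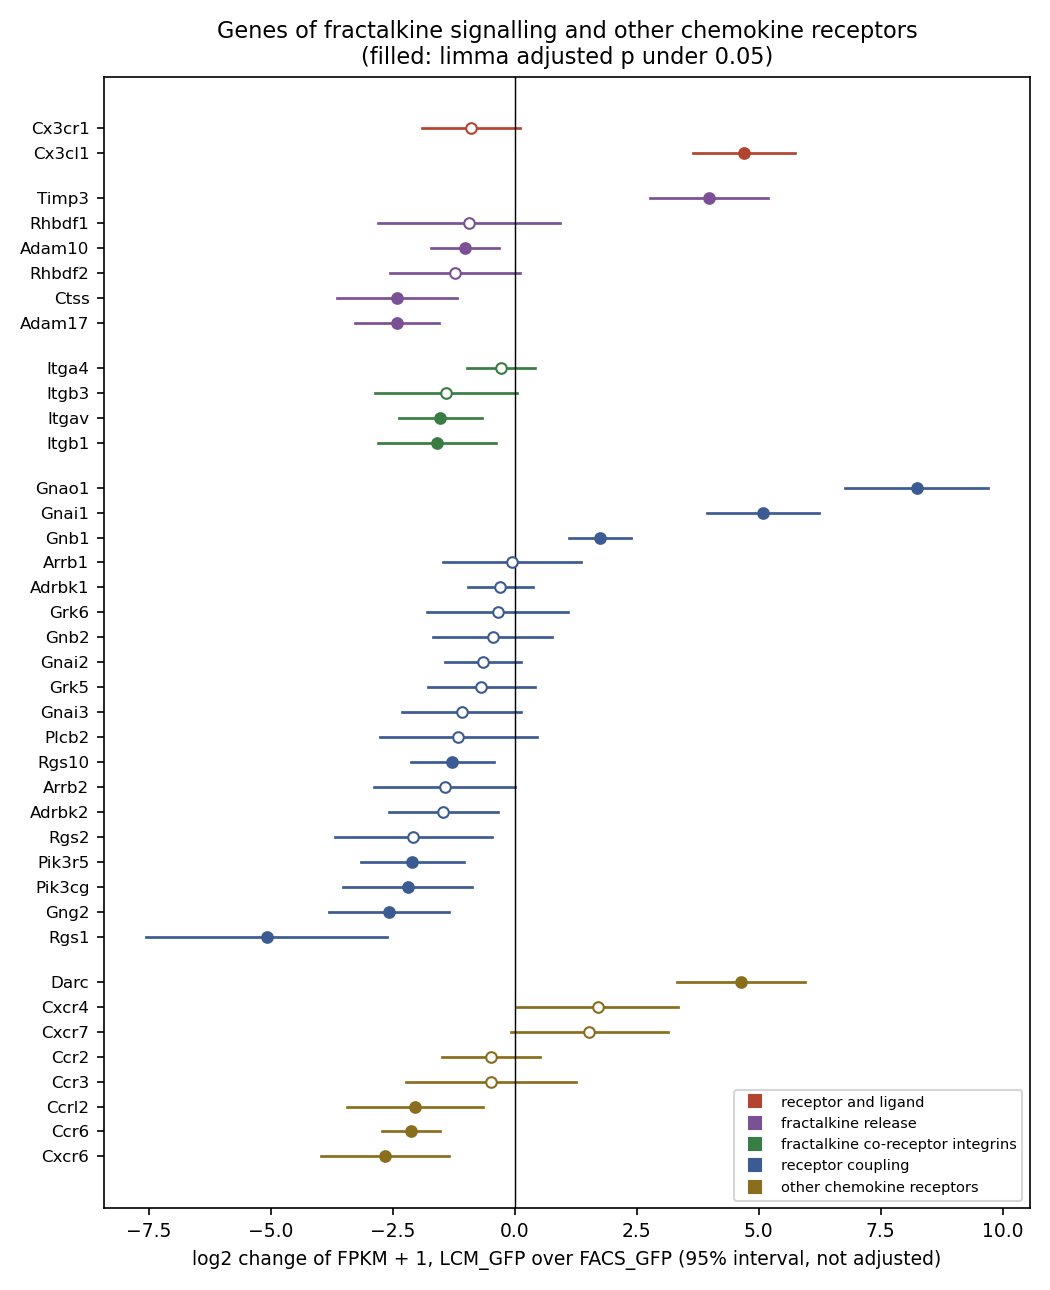
Log2 change of FPKM + 1 in LCM_GFP (n = 4) over FACS_GFP (n = 3) for Cx3cr1, Cx3cl1 and the tested genes of 4 lists, with 95% limma intervals not adjusted for multiple tests and filled points for limma adjusted p under 0.05. Cx3cl1 at 4.70, Timp3 at 3.98 and Gnao1 at 8.23 lie to the right, and Adam17 at −2.42 to the left.

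Genes with the most similar pattern were found by the root mean square difference of log2(FPKM + 1), centred on each gene's own mean, over the 10 libraries and 11548 candidates. Those nearest to Cx3cr1 were Cbx8 at 0.242, Grwd1 at 0.282, Csf1r at 0.304, B3gnt7 at 0.304, Acads at 0.328, Lrrc3 at 0.332, Sall3 at 0.334 and Rgs10 at 0.338. Csf1r and Rgs10 were the ones already described, and several others were low, with Cbx8 at 0.758 FPKM in LCM_GFP, 2.73 FPKM in FACS_GFP and 4.43 FPKM in FACS_WT. Those nearest to Cx3cl1 were Cntn2 at 0.102, Jph4 at 0.187, Ntrk3 at 0.190, Unc80 at 0.198, Aldh1a1 at 0.200, Cadm3 at 0.208, Rcan2 at 0.214 and Ephb1 at 0.218. Cntn2, an axonal adhesion molecule, averaged 28.5 FPKM in LCM_GFP, 0.0314 FPKM in FACS_GFP and 0.0173 FPKM in FACS_WT. All 8 genes shared the step between laser-captured and sorted libraries, which follows from picking them by likeness to Cx3cl1 over these same libraries.

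Genes that lie within 250 kb of each member were read from the mm9 coordinates of the table, a window chosen after the data were seen. Of 16 neighbours of Cx3cr1, 7 were tested between FACS_GFP and FACS_WT and none was called. Slc25a38, a mitochondrial glycine carrier 42091 bases away, averaged 7.0 FPKM in FACS_GFP and 9.16 FPKM in FACS_WT with groups that did not overlap (log2 change −0.35, limma adjusted p = 0.312). Groups also did not overlap for Gorasp1, with at most 1.93 FPKM in FACS_GFP and at least 1.96 FPKM in FACS_WT. SNORA73 went the other way without overlap, with 9.60 to 17.5 FPKM in FACS_GFP and 6.39 to 7.59 FPKM in FACS_WT. Over all tested genes, groups did not overlap for 9.29% on the lower side and 11.5% on the higher side. The chemokine receptor gene Ccr8, 23850 bases away, was listed at 0 in LCM_GFP and FACS_GFP and had at most 0.0852 FPKM in FACS_WT. Mobp, a myelin gene 81459 bases away, averaged 260 ± 194 FPKM in LCM_GFP (SD, n = 4) and 0.0300 ± 0.0208 FPKM in FACS_GFP (SD, n = 3).

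Around Cx3cl1 lie 2 other chemokine genes. Ccl22, 20309 bases away, was listed at 0 in every LCM_GFP library and averaged 1.12 FPKM in FACS_GFP and 2.29 FPKM in FACS_WT. Ccl17, 28029 bases away, ranged from 0 to 26.9 FPKM in LCM_GFP and reached at most 0.0656 FPKM in FACS_GFP and 0.1 FPKM in FACS_WT. Neither was tested against LCM_GFP, since they missed the filter. Of the 20 neighbours of Cx3cl1, 11 were tested between LCM_GFP and FACS_GFP, 1 was called higher and 2 lower, near the 12.5% and 19.6% of all tested genes.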

How the data were processed

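The tools named in the submitters' processing notes are Cufflinks 2.0.2, Bowtie2 2.0.0, TopHat2 2.0.4 and CASAVA 1.8.2, and the genome build is mm9. The order of steps, the annotation and the handling of reads that map to several places are not given in the sources used here. Per the labels' protocols, cDNA of every library was made by Ovation RNA-Seq, and replicates are labelled biological. The deposited table holds FPKM for 37447 genes in 10 libraries, per the file headers, and scaling between libraries is not stated. Of these genes 13661, among them 33 of 37 mitochondrial genes, were at 0 in every library, so a 0 can be a failed estimate. A second table deposited by the authors holds log2 fold changes, p-values and q-values per comparison. Its group values were not used here.

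Values were tested as log2(FPKM + 1) where a gene reached FPKM 1 in 3 or more compared libraries, by limma 3.58.1 (R 4.3.3, trend and robust estimation, statmod 1.5.0), two-sided, with only the compared groups in the fit. P-values were adjusted over all tested genes by Benjamini-Hochberg, and calls are adjusted p under 0.05. The test was tested on simulated data with known changes, drawn as independent normal values. Such data differ from FPKM near 0, so the simulation does not vouch for the calls given here. Values relative to microglia markers used an exact two-sided permutation test over libraries. Python 3.11.15, pandas 2.3.3, numpy 2.4.6, scipy 1.17.1 and matplotlib 3.10.9 handled tables and figures. Promoters came from RefSeq, GRCm38.p6, and both genes matched.

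The genes described and the 10 lists, with 121 genes all matched, were chosen with earlier results of these data known, as was the omission of LCM_GFP libraries 1 and 3. Named from each list were members called in the comparison described and its 4 most abundant, and in full where a list has fewer than 8 genes. The chemokine receptor list leaves out 1 gene that is not reported here. For marker lists only examples, chosen after their values were seen, are named. For each member the 8 genes with the nearest pattern were named, leaving out predicted genes and small RNAs. Alternatives were other pseudocounts, no filter, other scaling, all groups in 1 fit, no trend, a replicate block, sex as a covariate and leaving out libraries.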

Additional observations from a re-analysis of the deposited data

Results flagged for a closer look

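In groups of 4 libraries, the highest or lowest value was marked where its gap to the nearest other value took up more than the 95% critical share of the range. Of 136 values tested in LCM_GFP 16 were marked, where chance marks about 1 in 20 of normally distributed values. That rate need not hold here, since skewed FPKM with zeros were used and the values are not independent. Neither Cx3cr1 nor Cx3cl1 was among them. Of the genes named in the text 5 were marked, each because LCM_GFP library 2 lay high. Rhbdf1 had 0.344, 14.0, 1.76 and 1.06 FPKM in LCM_GFP libraries 1 to 4, a gap of 0.896 of the range. Rgs1 had 0, 20.2, 0.119 and 0.0739 FPKM, a gap of 0.994 of the range. Ccr6 was listed at 0 in all but library 2, which had 0.186 FPKM, a gap of 1.00 of the range. With all values but 1 at 0 the gap is 1.00 by construction, so Ccr6 had to be marked. Gnai2 had 45.7, 73.5, 41.9 and 40.3 FPKM, a gap of 0.838 of the range. Mobp had 124, 547, 188 and 181 FPKM, a gap of 0.850 of the range.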

How the results depend on the processing

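Of the 22 called list genes named in LCM_GFP against FACS_GFP, 10 kept their call in every alternative that gave a value. Among these, Timp3, Gnao1, Gnai1, Darc, Slco1a4 and Mobp entered the test through the laser-captured libraries, and Ccr6 through the sorted ones. The direction of those genes was therefore fixed by the filter, except for Gnao1, which had 1.17 FPKM in FACS_GFP library 3. Ccr6 gave no value with any 1 FACS_GFP library left out. Itga4, which was not called, changed direction, to 0.0466 with quantile normalization and 0.0681 with laser-captured libraries 2 and 4 only, and so did the difference of Cx3cl1 between the sorted groups, which was −0.000928 without FACS_GFP library 3 against 0.05 as reported, and the median of the chemokine receptors. These alternatives for list genes were chosen after seeing the data. The lower call of Cx3cr1 in LCM_GFP against FACS_WT ended with median ratio scaling (−1.32, limma adjusted p = 0.0580), and its change without 1 library ran from −2.10 to −1.63. Between FACS_GFP and FACS_WT the call ended with no filter on low values (−0.97, limma adjusted p = 0.0964) and with all 3 groups in 1 fit (−0.97, limma adjusted p = 1.00), and without 1 library the change ran from −1.03 to −0.91. The difference of Cx3cl1 between the sorted groups was 0.05, and 0.23 with a pseudocount of 0.1. Called genes between FACS_GFP and FACS_WT numbered 13, 7 with no filter, 3 with all groups in 1 fit and 4 to 15 without 1 library. Without 1 library they numbered 1042 to 5434 in LCM_GFP against FACS_GFP and 1089 to 5257 in LCM_GFP against FACS_WT. The low numbers came from leaving out a sorted library, with 1042 to 1087 without 1 FACS_GFP library and 1089 to 1160 without 1 FACS_WT library. Without 1 library Cx3cr1 in LCM_GFP against FACS_GFP stood at −1.14 to −0.66. With sex as a covariate, added after seeing the data, Cx3cr1 stood at −1.39 in LCM_GFP against FACS_WT, with 1760 genes called, and at −1.06 in FACS_GFP against FACS_WT. Of the called genes in LCM_GFP against FACS_GFP 39.0% were higher, and 57.9% with median ratio scaling, 51.6% with quantile normalization, 69.7% to 70.8% without 1 FACS_GFP library and 18.1% with laser-captured libraries 2 and 4 only. The figures for LCM_GFP against FACS_WT were 39.2%, 57.6%, 51.5%, 66.9% to 70.1% without 1 FACS_WT library, and 19.0%, and 50.2% with sex as a covariate. Libraries 2 and 4 of LCM_GFP alone gave no value for Cx3cl1. Deviations of libraries with the same number correlated at −0.0401 to 0.215 across the 3 comparisons and not over 0.1 in every pair, and the main fits did not pair libraries. Between FACS_GFP and FACS_WT these correlations were 0.141, 0.0102 and 0.215, against −0.2235 to 0.0885 for libraries with different numbers. Whether the numbers pair the sorted libraries cannot be told from so few values. With the number as a replicate block Cx3cr1 stood at −0.66 (limma adjusted p = 0.373) in LCM_GFP against FACS_GFP, −1.63 (0.0443) in LCM_GFP against FACS_WT and −0.97 (0.0162) in FACS_GFP against FACS_WT, and Cx3cl1 stood at 4.49 (0.00446) and 4.54 (0.00472) in LCM_GFP against the sorted groups. Called genes numbered 3536, 3422 and 19 with the block. Depth is not given, so levels near 0 cannot be told from absence.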
